A study of Mus musculus with 10 samples.

Results

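The 3 NUP98-JARID1A lines of the series were compared with each other, with line 2 set against lines 1 and 3. The 3 lines are mouse hematopoietic progenitors transformed by the NUP98-JARID1A fusion, and each was measured on 1 array, so a line, its culture and its array cannot be told apart and no difference between lines could be tested. Members were chosen from the measured values: a gene counted as set apart in line 2 when its level lay more than 2 on the log2 scale, a 4-fold difference, from both line 1 and line 3 on the same side. Of 11993 genes tested, 65 (0.542%) met this rule, 11 above both other lines (0.0917%) and 54 below both (0.45%). Because the levels of these 3 arrays chose the genes, their levels are given as a description.

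The series holds 10 Affymetrix Mouse Genome 430 2.0 arrays of total RNA from transformed leukemia stem cell lines, all kept in Opti-MEM that contained serum and the cytokine stem cell factor. Beside the 3 untreated NUP98-JARID1A lines there were 1 untreated MLL-AF9 line, RH-RAS lines 1 and 3 after 4 days in 1 µM SGC0946, and 4 untreated RH-RAS lines. RH-RAS lines coexpress DNMT3A with the R882H mutation and NRAS-G12D and are labelled as independently derived, and SGC0946 inhibits the histone H3 lysine methyltransferase Dot1l. How the NUP98-JARID1A lines were derived from each other or from separate animals, and the vector that carries the fusion, is not given in the sources used here. All values are RMA levels on the log2 scale, in which a step of 1 is a doubling.

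NUP98-JARID1A joins part of a nuclear pore protein to the chromatin-reading end of the histone demethylase KDM5A, and in mouse progenitors it is known to hold Hoxa and other stem cell genes in an active state and to block myeloid maturation. Neutrophil precursors fill their granules in waves: azurophil (primary) granule proteins such as myeloperoxidase are made first, at the promyelocyte stage, and secondary and tertiary granule proteins such as lactoferrin follow in myelocytes and metamyelocytes, under C/EBP epsilon in particular. A culture blocked early in that course is therefore described by which of these waves its RNA still holds.

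The labels were first set against the data. Kit, the stem cell factor receptor, stood at 12.27 in line 2, against 11.94 in line 1 and 11.98 in line 3, and the progenitor antigen Cd34 was at 12.50 or above in all 3. The pan-leukocyte gene Ptprc read 12.33 in line 2, against 12.48 in line 1 and 12.66 in line 3. Nup98 was at 10.48 in line 2, against 10.44 in line 1 and 10.27 in line 3, and Kdm5a, the mouse gene of JARID1A, at 9.45 in line 2, against 9.47 in line 1 and 9.43 in line 3. Other Kdm5a probe sets varied more. For example, 1 read 7.31 in line 2, against 6.47 in line 1 and 6.39 in line 3, with 9.03 to 9.996 in untreated RH-RAS lines. Another read 6.04 in line 2, against 5.985 in line 1 and 5.185 in line 3, with 7.91 to 9.08 in untreated RH-RAS lines. These probe sets do not separate the fusion from the endogenous genes, so they do not check its level. Eosinophil markers Epx, Prg2, Prg3 and Ccr3 and the mast cell genes Fcer1a and Ms4a2 stayed below the array median in all 3 lines. Other genes of these lineages were above it in all 3 lines. They were the eosinophil marker Siglecf and the mast cell and basophil genes Cpa3, Hdc, Mitf and Gata2. Siglecf, for example, read 7.94 in line 2, against 8.26 in line 1 and 7.93 in line 3.

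Line 2 was not the line that stood furthest apart by number. By the same rule 68 genes (0.567%) were set apart in line 1, 30 higher (0.25%) and 38 lower (0.317%), and 41 (0.342%) in line 3, 31 higher (0.258%) and 10 lower (0.0834%). Of the 65 genes of line 2, 54 were lower than in both other lines, while line 3 leaned the other way, with 31 of 41 higher. The filter on dim probe sets asks for a level above the array median on 2 or more arrays. It took out 3 genes that were higher in line 2 and 0 that were lower. Across the genes tested, lines 2 and 3 correlated at a Pearson r of 0.971 and differed by more than 2 in 143 genes, lines 2 and 1 at 0.962 with 185 such genes, and lines 1 and 3 at 0.966 with 162. The 4 untreated RH-RAS lines were closer to each other: their pairs correlated between 0.986 and 0.997, with at most 32 genes more than 2 apart, and 0, 0, 0 and 18 genes (0.15%) lay more than 2 from all the other 3 lines. Array medians lay between 5.72 and 5.82 on the 10 arrays.

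**Figure D1:**
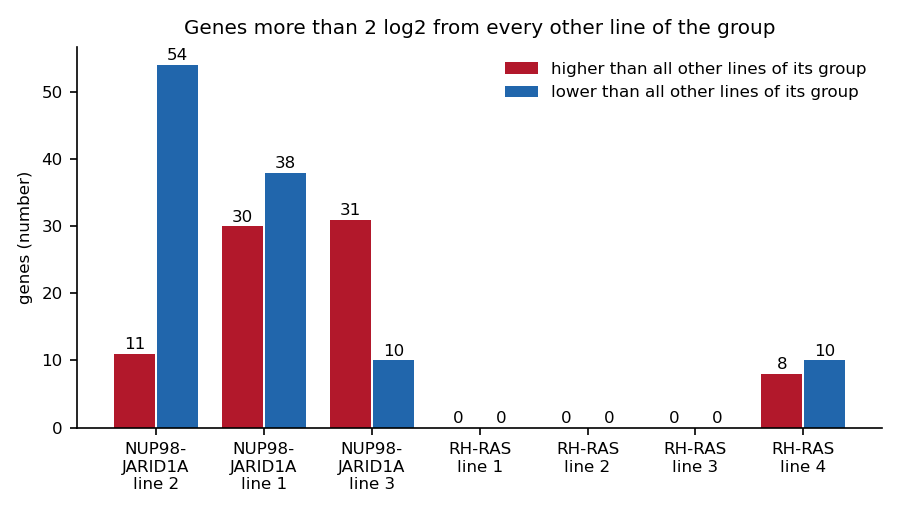
Number of genes (y axis) whose level in a line lies more than 2 on the log2 scale from every other untreated line of its group, for NUP98-JARID1A lines 2, 1 and 3 and RH-RAS lines 1 to 4. Red bars count genes higher than in all the other lines and blue bars genes lower, and line 2 shows 11 red and 54 blue.

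The largest group among the 54 lower genes was made of late neutrophil genes, those of secondary and tertiary granules and of the maturing neutrophil surface. Of the 20 genes listed, 17 were measured and 16 passed the filter on dim probe sets, and line 2 held the lowest level of the 3 lines for 16 of 16, where it was the lowest for 30.6% of all genes tested. Of these 16, 8 were set apart lower in line 2, and the median of line 2 minus the mean of lines 1 and 3 was -2.71, against 0.026 over all genes tested. Since low levels of these genes partly chose the members, and the list was drawn up with earlier results known, the count describes the group and is not separate evidence. In RNA from a whole culture, fewer maturing cells and less of each RNA per cell cannot be told apart.

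The regions just before the start of 3 of the 8 genes set apart are shown because the genes were low together and C/EBP factors are known to act on granule genes of this class. Ngp and Ltf are the 2 of the 8 that hold the motif searched for, and Chil3 is shown as 1 of the 6 that do not. The sequences are the 200 bases upstream of the RefSeq start on build GRCm38.p6, 5′ to 3′ on the gene's strand, and the capitals mark matches to the C/EBP-type motif TTGCNNAA on either strand. Ngp lies on the plus strand with its window at chr9:110419608-110419807, Ltf on the plus strand at chr9:111019092-111019291, and Chil3 on the minus strand at chr3:106167565-106167764.
Ngp: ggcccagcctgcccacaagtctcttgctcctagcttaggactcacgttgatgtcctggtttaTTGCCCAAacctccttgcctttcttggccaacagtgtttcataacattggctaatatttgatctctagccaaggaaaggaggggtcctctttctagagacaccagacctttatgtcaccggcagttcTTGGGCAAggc
Ltf: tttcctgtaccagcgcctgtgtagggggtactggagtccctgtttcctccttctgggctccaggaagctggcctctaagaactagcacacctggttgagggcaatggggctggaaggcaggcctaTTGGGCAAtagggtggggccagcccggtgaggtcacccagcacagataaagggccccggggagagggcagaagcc
Chil3: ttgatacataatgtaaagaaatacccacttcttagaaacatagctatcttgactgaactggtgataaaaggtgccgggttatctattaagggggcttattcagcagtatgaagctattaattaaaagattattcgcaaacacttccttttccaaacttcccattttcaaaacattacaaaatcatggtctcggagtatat
The Ngp window held 2 matches, whose first bases lie at -138 and -11 from the start, the Ltf window held 1 at -75, and the Chil3 window held none. The motif was present in 7.47% of 27025 RefSeq promoter windows of this length and in 5.62% of the 9731 that belong to genes tested. It was present in 8 of the 41 windows found for the genes lower in line 2 (19.5%), in 2 of the 9 found for the higher genes (22.2%), and in 3 of the 18 found for the late neutrophil list (16.7%). These are matches of letters in a fixed window, and no binding was measured.

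Chil3, a chitinase-like protein secreted by neutrophil precursors and macrophages, was the gene furthest below both other lines. Its level was 5.20 in line 2, against 12.16 in line 1 and 10.77 in line 3, which is 77.2-fold below the mean of lines 1 and 3. The level in line 2 lay under the median of its own array. Cd177, a neutrophil surface glycoprotein, gave 5.37 in line 2, against 8.77 in line 1 and 10.11 in line 3. Lrg1, a leucine-rich glycoprotein packed in neutrophil granules, was likewise under the array median in line 2, at 4.78, against 8.54 in line 1 and 7.11 in line 3.

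The secondary granule genes themselves were lower without being at the floor. Ngp, neutrophilic granule protein, stood at 9.85 in line 2, against 14.25 in line 1 and 12.71 in line 3. Ltf, lactoferrin, was 9.08 in line 2, against 12.71 in line 1 and 11.79 in line 3, and Lcn2, the siderophore-binding lipocalin, was 8.53 in line 2, against 12.20 in line 1 and 11.60 in line 3. Camp, the cathelicidin precursor, differed between all 3 lines, with 7.24 in line 2, against 12.77 in line 1 and 9.32 in line 3. Fpr2, a formyl peptide receptor, read 7.69 in line 2, against 10.76 in line 1 and 10.54 in line 3. In each of these 5 genes line 2 was the lowest of the 3 lines, and line 1 the highest.

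The other 8 late neutrophil genes were also lowest in line 2, by less. S100a8 and S100a9, the calprotectin subunits, were near the top of the scale on every NUP98-JARID1A array: S100a8 was 12.78 in line 2, against 14.28 in line 1 and 14.20 in line 3, and S100a9 was 12.93 in line 2, against 14.52 in line 1 and 14.32 in line 3. Stfa2l1, a stefin, gave 7.67 in line 2, against 10.80 in line 1 and 9.49 in line 3, and Padi4, the arginine deiminase of neutrophil chromatin, 8.58 in line 2, against 11.31 in line 1 and 10.02 in line 3. Mmp9 (gelatinase B), Mmp8 (neutrophil collagenase), Hp (haptoglobin) and Itgam (CD11b) lay between 0.69 and 1.41 below the mean of lines 1 and 3. Line 1 was the highest of the 3 lines in 14 of the 16 genes, against 33.0% of all genes tested, and line 3 in the other 2, Cd177 and Itgam, so the list ordered the lines as 2 lowest, 3 between and 1 highest for most genes.

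Set beside the other arrays, line 2 still held more of this RNA than RH-RAS cells did. The mean level over the 16 genes was 8.51 in line 2, 11.6 in line 1 and 10.7 in line 3, with 8.91 in the MLL-AF9 line, 5.31 in both SGC0946-treated RH-RAS lines and 4.78 to 4.95 in the 4 untreated RH-RAS lines. Ngp, for example, read 5.10 to 5.47 in untreated RH-RAS lines and 11.60 in the MLL-AF9 line.

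**Figure D2:**
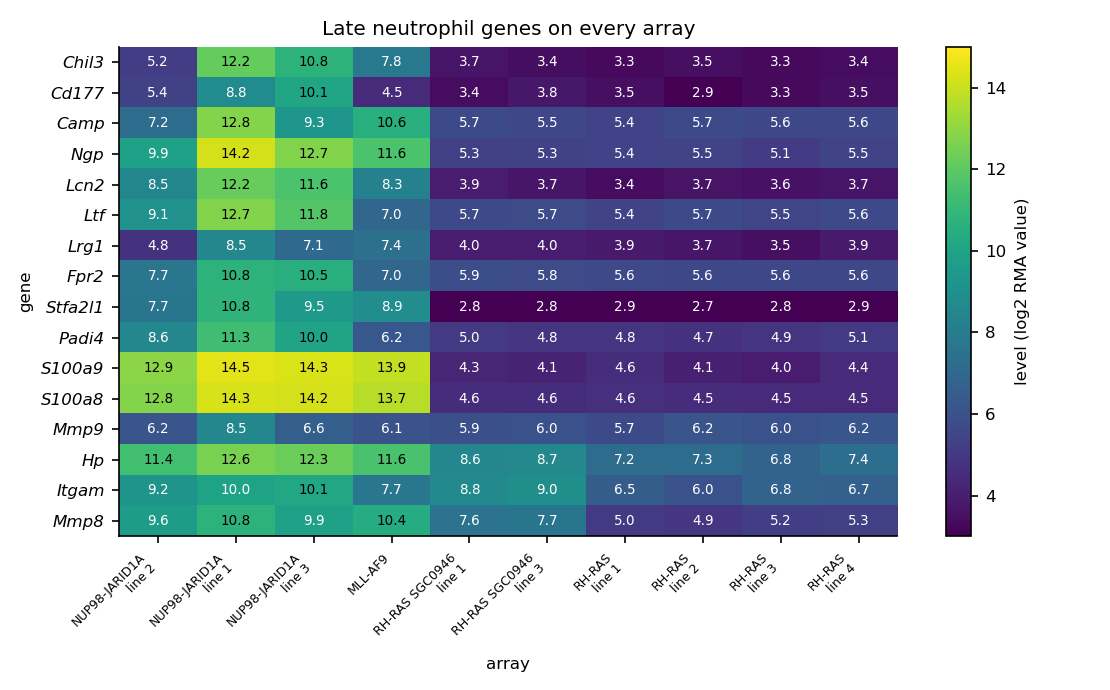
Level (log2 RMA value, colour and printed number) of the 16 late neutrophil genes tested (rows, ordered by line 2 minus the mean of lines 1 and 3) on all 10 arrays (columns). Line 2 is the lowest of the 3 NUP98-JARID1A columns in every row, from 5.2 for Chil3 to 12.9 for S100a9, and the untreated RH-RAS columns are lower still in every row except Mmp9, where the highest RH-RAS column stands at 6.19 and line 2 at 6.16.

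The genes of the earlier, azurophil wave were also mostly lowest in line 2, but by less. Of 10 primary granule genes tested, line 2 was the lowest in 8, where it was the lowest for 30.6% of all genes tested. Their median difference was -0.28, and 1 gene was set apart. That gene was Ms4a3, a membrane protein of granulocyte-monocyte progenitors, at 8.33 in line 2, against 11.94 in line 1 and 11.18 in line 3. Elane, neutrophil elastase, stood at 7.65 in line 2, against 11.49 in line 1 and 9.32 in line 3, which leaves it short of the rule against line 3, and Fcnb, ficolin B, at 5.97 in line 2, against 9.16 in line 1 and 6.88 in line 3. Mpo, myeloperoxidase, was 13.66 in line 2, against 12.98 in line 1 and 14.05 in line 3. The proteases Prtn3 and Ctsg were near the top of the scale in all 3 lines. In line 2 they were within 0.5 of the others, with Prtn3 at 13.62 in line 2, against 13.98 in line 1 and 13.78 in line 3.

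Several of the remaining lower genes are also known from maturing or activated neutrophils, though they were on no list. Olfm4, a secondary granule glycoprotein carried by a subset of neutrophils, gave 7.47 in line 2, against 11.51 in line 1 and 10.54 in line 3. Pglyrp1, a peptidoglycan-binding granule protein, gave 7.86 in line 2, against 11.27 in line 1 and 10.28 in line 3. Stfa3, a stefin of the same cluster family as Stfa2l1, was 8.31 in line 2, against 12.84 in line 1 and 10.41 in line 3. Chil1, the chitinase-like protein of specific granules, was 5.94 in line 2, against 10.84 in line 1 and 8.11 in line 3. Saa3 (an acute-phase serum amyloid), Wfdc21 (a whey acidic protein), Slfn4 (a schlafen of myeloid cells) and Scin (an actin-severing protein) were lower in line 2 by 2.41 to 3.33.

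Some of the lower genes encode surface receptors. The C-type lectin genes Olr1, Clec7a and Klra17 lie within 370 kb of each other on chromosome 6, and all 3 were lower in line 2. Clec7a, the beta-glucan receptor dectin 1, read 7.96 in line 2, against 10.27 in line 1 and 10.14 in line 3. Olr1, the oxidised LDL receptor, read 4.70 in line 2, against 8.97 in line 1 and 7.13 in line 3, and Klra17 read 7.89 in line 2, against 10.31 in line 1 and 10.24 in line 3. Clec4a2, an inhibitory lectin receptor, was 6.96 in line 2, against 10.41 in line 1 and 9.33 in line 3. Cd163, the haemoglobin scavenger receptor, was under the array median in all 3 lines, at 2.50 in line 2, against 5.61 in line 1 and 5.73 in line 3.

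Among the other lower genes were some of the extracellular matrix and cell surface. Thbs1, thrombospondin 1, stood at 6.20 in line 2, against 11.32 in line 1 and 10.05 in line 3, and its second probe set differed by -3.11. Fn1, fibronectin, was 8.06 in line 2, against 10.46 in line 1 and 10.44 in line 3. Sdc1, the proteoglycan syndecan 1, was 7.01 in line 2, against 10.64 in line 1 and 9.29 in line 3. Cav2, caveolin 2, was 4.56 in line 2, against 8.76 in line 1 and 10.06 in line 3. The second Cav2 probe set differed by only -0.28, with 5.95 in line 2, against 6.20 in line 1 and 6.26 in line 3. Fibroblast markers Col1a1, Col1a2, Col3a1, Pdgfra and Dcn were below the array median in all 3 lines. Pdgfrb and Sparc were above it in all 3. Pdgfrb read 6.03 in line 2, against 7.44 in line 1 and 6.03 in line 3. Sparc read 6.57 in line 2, against 6.38 in line 1 and 6.27 in line 3. Detoxifying enzymes were represented by Mgst1 and Mgst2, microsomal glutathione transferases, and Pon2, a paraoxonase: Mgst1, for example, was 9.23 in line 2, against 11.44 in line 1 and 11.97 in line 3. Prom1, the stem cell antigen CD133, gave 5.62 in line 2, against 8.69 in line 1 and 8.24 in line 3, and Il15, a cytokine that sustains natural killer and memory T cells, gave 4.08 in line 2, against 7.66 in line 1 and 6.60 in line 3.

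Some of the lower genes were also low against the whole series. For 7 genes (0.0584%) line 2 lay more than 2 below all of the other 9 arrays. Line 1 had 12 such genes below (0.1%) and 13 above (0.108%), and line 3 had 5 below (0.0417%) and 10 above (0.0834%). Ccdc90b, a mitochondrial coiled-coil protein, was at 3.00 in line 2, against 7.55 in line 1 and 8.74 in line 3, and between 7.55 and 9.33 over the other 9 arrays. Zfp507, a zinc finger protein, was at 3.95 in line 2, against 9.44 in line 1 and 9.18 in line 3, and at 8.30 or above on the other 9 arrays. Ptpn12, the tyrosine phosphatase PTP-PEST, was at 6.82 in line 2, against 10.70 in line 1 and 10.95 in line 3, and its other 3 probe sets differed by -3.07, -3.80 and -4.20. Hnrnpll, a splicing regulator, was at 7.63 in line 2, against 10.63 in line 1 and 11.32 in line 3, and its second probe set differed by -4.14. Arhgap12 was at 3.42 in line 2, against 5.98 in line 1 and 6.002 in line 3. Simc1, a SUMO-interacting protein, and Pon2 complete the set: Simc1 was at 4.87 in line 2, against 7.57 in line 1 and 7.13 in line 3, and Pon2 at 6.72 in line 2, against 8.94 in line 1 and 9.47 in line 3.

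The rest of the 54 lower genes serve varied roles in metabolism, transport and signalling. Mgam, the digestive enzyme maltase-glucoamylase, which is also made by granulocytes, read 4.43 in line 2, against 8.02 in line 1 and 8.05 in line 3. C730049O14Rik, an uncharacterised transcript, read 5.47 in line 2, against 10.30 in line 1 and 9.60 in line 3. Mogat2, a monoacylglycerol acyltransferase, read 6.04 in line 2, against 10.07 in line 1 and 8.36 in line 3, and Acpp, the prostatic acid phosphatase, 4.47 in line 2, against 8.58 in line 1 and 7.08 in line 3. Over all members, lines 1 and 3 lay within 1 of each other for 35 of the 54 lower genes and 8 of the 11 higher ones. Dio2 (a deiodinase that activates thyroid hormone), Xdh (xanthine dehydrogenase), Bdh1, Dnajc6, Sec24d (a coat protein of vesicles leaving the endoplasmic reticulum), Rab23 (a small GTPase), Tmc7 and Ccdc125 were members too. Dio2, for example, read 6.26 in line 2, against 8.96 in line 1 and 8.98 in line 3. Over the 54 lower genes the median level was 6.23 in line 2, against 9.78 in line 1 and 9.49 in line 3, and 21 of them lay under the array median in line 2.

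Some of the lower genes are near neighbours. Among the 64 members with a RefSeq position, 5 pairs had starts within 500 kb, and they involved 7 genes: Ptpn12 and Fgl2 on chromosome 5, Rnf125 and B4galt6 on chromosome 18, and the 3 lectin receptor genes. The share of such pairs over all genes is not given here. Rnf125, a ubiquitin ligase, read 5.32 in line 2, against 9.18 in line 1 and 9.01 in line 3, and B4galt6, a lactosylceramide synthase, 5.20 in line 2, against 8.29 in line 1 and 9.76 in line 3. Fgl2, a fibrinogen-like protein of immune cells, gave 5.89 in line 2, against 8.44 in line 1 and 8.34 in line 3. No whole chromosome was shifted: the median of line 2 minus the mean of lines 1 and 3 lay between -0.019 on X and 0.056 on chromosome 11 over 20 chromosomes. The most members on any chromosome were 10, among the 600 genes tested on chromosome 6, against 65 of 11993 (0.542%) over all genes tested.

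Few genes were higher in line 2, and 1 of the 11, Gfi1b, was on a list. Gm10419, a predicted gene, stood furthest above, at 9.25 in line 2, against 4.28 in line 1 and 5.82 in line 3. Rras2, a small GTPase of the RAS family, was 9.59 in line 2, against 3.87 in line 1 and 7.14 in line 3, so it separated all 3 lines, and its second probe set gave 8.56 in line 2, against 4.48 in line 1 and 6.42 in line 3. For 3 genes of the 11 (0.025% of all genes tested), Gm10419, Cttn and Fgfbp3, line 2 lay more than 2 above all of the other 9 arrays. Rras2 was between 9.04 and 10.18 on the 7 arrays of the other groups, and line 1 was the lowest of the 10. Cttn, the actin-binding protein cortactin, was 8.87 in line 2, against 5.46 in line 1 and 6.16 in line 3, and Dennd5b, an exchange factor for Rab GTPases, 8.40 in line 2, against 5.02 in line 1 and 5.67 in line 3.

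The lineage gene of the higher set was Gfi1b, a transcriptional repressor of erythroid and megakaryocyte development. Its level was 9.81 in line 2, against 7.65 in line 1 and 7.44 in line 3, 4.81-fold above the mean of lines 1 and 3. Its paralogue Gfi1, a repressor needed for neutrophil maturation, was 9.65 in line 2, against 10.58 in line 1 and 10.29 in line 3. Megakaryocyte and platelet genes had a median difference of 0.39, with line 2 the highest in 7 of 9 where 37.2% of all genes had it highest. Line 1 was the lowest in 7 of these 9, against 34.8% of all genes, and the median of line 2 minus line 3 was 0.17. The largest difference among the 9 was in Itgb3, at 9.47 in line 2, against 8.21 in line 1 and 8.27 in line 3, while Pf4 and Itga2b were within 0.5 of the mean of the other lines. Vwf was highest in line 3, at 7.93 in line 2, against 5.86 in line 1 and 8.32 in line 3. Erythroid genes had a median difference of 0.14 over 6, and none was set apart in line 2. The other higher genes were Fgfbp3, an FGF-binding protein, Rundc3b, Zfp827, the cadherin Cdh17, the secreted protein gene Oaf, and Smad6, an inhibitor of BMP signalling, at 2.10 to 3.19 above the mean of lines 1 and 3.

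**Figure D3:**
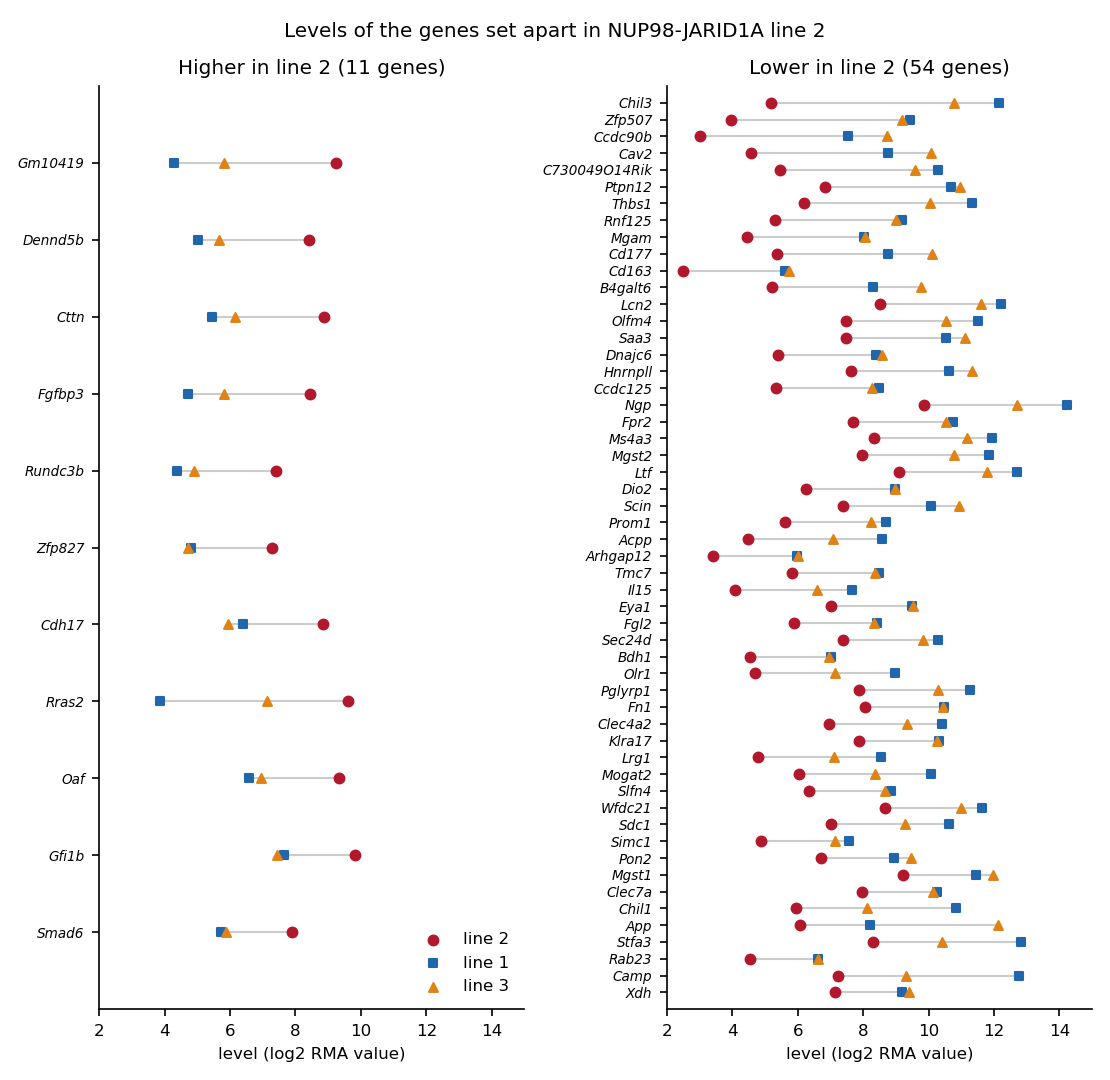
Level (x axis, log2 RMA value) of the 11 genes higher and the 54 genes lower in line 2 (rows, in order of the smaller distance), with line 2 as red circles, line 1 as blue squares and line 3 as orange triangles. Each gene has 1 value per line and no error bar, and the red circle lies more than 2 from both other symbols in every row.

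Hoxa and Hoxb genes were read by cluster. Over the 9 Hoxa genes measured the median difference was 0.26, with line 2 the highest in 5 and none more than 1 from the mean of lines 1 and 3, and over the 7 tested it was 0.05. The Hoxa gene that differed most was Hoxa2, at 7.54 in line 2, against 6.53 in line 1 and 6.58 in line 3. Hoxa9, the main leukemogenic member, was 12.36 in line 2, against 12.36 in line 1 and 12.40 in line 3. Hoxa7 was 9.94 in line 2, against 10.01 in line 1 and 9.75 in line 3, Hoxa5 was 9.84 in line 2, against 9.41 in line 1 and 9.57 in line 3, and Hoxa10 was 8.82 in line 2, against 9.29 in line 1 and 9.14 in line 3.

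All 9 Hoxb genes measured were highest in line 2, where it was the highest for 37.2% of all genes tested. They lay 0.054 to 2.77 above the mean of lines 1 and 3, and 4 of them more than 1 above it. Only 3 passed the filter on dim probe sets and are counted among the genes tested. Those 3 were Hoxb3, at 9.02 in line 2, against 7.63 in line 1 and 7.53 in line 3, Hoxb4, at 8.25 in line 2, against 7.94 in line 1 and 7.50 in line 3, and Hoxb5, at 6.63 in line 2, against 5.85 in line 1 and 4.07 in line 3. Hoxb2 and Hoxb6 met the distance rule but not the filter, because they were above the array median on line 2 alone. Hoxb2 was 8.35 in line 2, against 5.41 in line 1 and 5.76 in line 3, and Hoxb6 was 6.77 in line 2, against 4.54 in line 1 and 4.71 in line 3. Untreated RH-RAS lines read 5.35 to 5.51 for Hoxb2 and 4.16 to 4.34 for Hoxb6. Another gene of this kind was Rims2, at 7.21 in line 2, against 4.88 in line 1 and 4.90 in line 3, so that 68 genes in all met the distance rule before the filter. Line 3 was the low one for Hoxb5os, the transcript annotated beside Hoxb5, which read 12.30 in line 2, against 11.39 in line 1 and 9.003 in line 3. Hoxb1 and the posterior genes Hoxb7, Hoxb9 and Hoxb13 were below the array median in all 3 lines.

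Partners of the Hox genes varied between lines in ways of their own. Meis1, the Hox cofactor, was 8.22 in line 2, against 7.83 in line 1 and 8.08 in line 3. Pbx3, its companion cofactor, was 9.44 in line 2, against 6.997 in line 1 and 9.37 in line 3, so line 1 was the low one. Mecom, the stem cell regulator Evi1, differed between all 3 lines, with 9.20 in line 2, against 8.01 in line 1 and 5.83 in line 3. Eya1, a phosphatase and transcriptional cofactor, was a member on the low side, at 7.02 in line 2, against 9.48 in line 1 and 9.52 in line 3, and Six4, a homeobox factor, was high in line 1 alone, at 7.05 in line 2, against 9.89 in line 1 and 6.08 in line 3. The homeobox gene Nkx2-3 was 6.47 in line 2, against 8.29 in line 1 and 8.63 in line 3. Kdm5b, a demethylase of the JARID1 family, was 9.80 in line 2, against 8.21 in line 1 and 7.77 in line 3.

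Progenitor genes leaned to the high side in line 2, with a median difference of 0.35 over the 14 tested. Line 2 was the highest in 9, where it was the highest for 37.2% of all genes tested. The median of line 2 minus line 3 was 0.68, and that of line 2 minus line 1 was 0.23. The mean level was 9.09 in line 2, 9.10 in line 1 and 8.59 in line 3. Flt3, the receptor of early progenitors and dendritic cells, was 11.03 in line 2, against 9.89 in line 1 and 10.06 in line 3, and Hmga2, a fetal chromatin protein, 10.97 in line 2, against 9.11 in line 1 and 9.74 in line 3. Itgax, the dendritic cell integrin CD11c, which is not on the progenitor list, was 10.32 in line 2, against 8.83 in line 1 and 8.59 in line 3. Prom1, a member on the low side, went the other way. None of Flt3, Hmga2 and Itgax met the distance rule.

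Of 17 myeloid transcription factors tested, Gfi1b was the only member set apart in line 2, and Maf was set apart lower in line 1. Spi1 (PU.1) was 11.54 in line 2, against 11.49 in line 1 and 11.72 in line 3. Cebpa was 10.69 in line 2, against 11.67 in line 1 and 10.44 in line 3, which puts line 1 highest, and Irf8 was 10.96 in line 2, against 10.45 in line 1 and 10.81 in line 3. Cebpe, the factor of the secondary granule stage, has no probe set of its own in the annotation and was not measured here. The receptors Csf1r, at 11.64 in line 2, against 11.41 in line 1 and 12.38 in line 3, and Csf3r, at 9.75 in line 2, against 9.55 in line 1 and 10.29 in line 3, were highest in line 3. Maf and Il7r were low in line 1 alone: Il7r, the interleukin 7 receptor, was 7.97 in line 2, against 5.13 in line 1 and 7.65 in line 3.

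Growth programmes differed little between the 3 lines. The median difference of line 2 was -0.046 over 24 proliferation genes, 0.060 over 20 MYC and ribosome biogenesis genes, 0.026 over 16 cholesterol biosynthesis genes and -0.007 over 19 stress genes, and no gene of these lists was set apart in any line. Mki67, for example, was 12.12 in line 2, against 12.17 in line 1 and 12.21 in line 3. The median was 0.029 over 20 hypoxia and glycolysis genes, 0.029 over 16 inflammatory and NF-kB genes, and -0.038 over 14 p53 targets and cell cycle inhibitors. Among markers of other lineages the median was 0.22 over 9 B lymphoid genes, 0.09 over 10 T and NK genes, 0.07 over 6 mast cell and basophil genes and 0.36 over 11 dendritic cell and MHC class II genes, with line 2 the highest in 8 of those 11. Lists with a lower median in line 2, beside the granule lists, included cytokine receptors (-0.17 over 15), myeloid transcription factors (-0.15 over 17) and interferon-stimulated genes (-0.27 over 23). Others were monocyte and macrophage genes (-0.40 over 24) and the 3 fibroblast and stromal genes tested, which include Fn1 (-0.71). In that order, leaving out the fibroblast list, the median of line 2 minus line 1 was 0.20, 0.03, 0.29 and -0.03. The median of line 2 minus line 3 was -0.34, -0.26, -0.78 and -0.85, so these lists were low in line 2 mainly against line 3. RAS-MAPK feedback genes had a median of 0.24, and the largest difference was in the phosphatase Dusp4, at 10.93 in line 2, against 8.08 in line 1 and 10.31 in line 3.

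**Figure D4:**
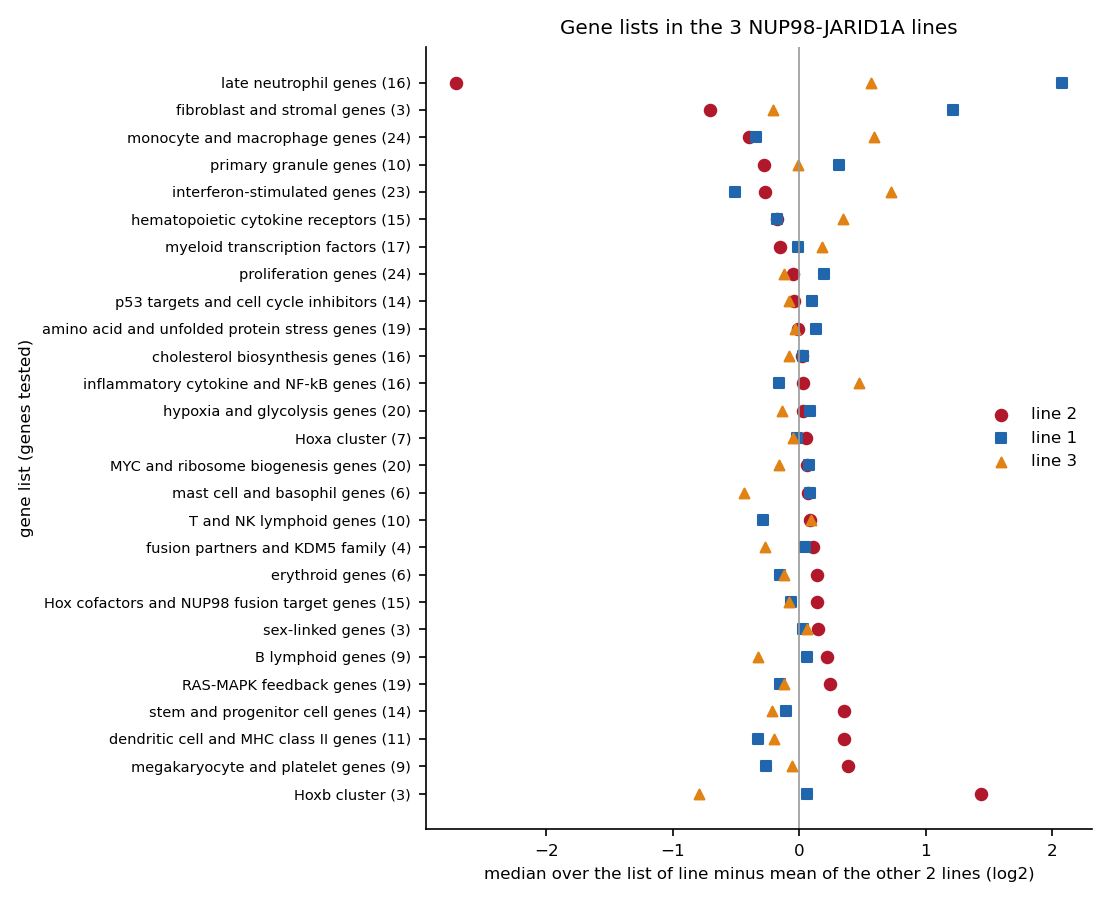
Median over each gene list (rows, with the number of genes tested in brackets) of a line minus the mean of the other 2 lines (x axis, log2), for line 2 (red circles), line 1 (blue squares) and line 3 (orange triangles). Lists with under 3 genes tested are not drawn, and the late neutrophil list at the top has line 2 at -2.71, line 1 at 2.08 and line 3 at 0.57.

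Lines 1 and 3 had marks of their own. In line 1 the late neutrophil list stood above the other lines, by a median of 2.08, and interferon-stimulated genes below them, by 0.51. Lpcat2, a phospholipid acyltransferase, read 9.62 in line 1, against 4.66 in line 2 and 4.25 in line 3, and AI506816 and Zfp760, each with 1 probe set, were low in line 1 alone. Zfp760 was 3.51 in line 1, against 8.30 in line 2 and 8.34 in line 3. Pdxdc1 has no settled direction, because its probe sets disagreed: the brightest on average read 5.15 in line 1, against 10.36 in line 2 and 10.36 in line 3. Another read 10.01 in line 1, against 6.46 in line 2 and 6.46 in line 3. In line 3, interferon-stimulated genes were above the other lines by a median of 0.73 and monocyte and macrophage genes by 0.59, with line 3 the highest in 20 of 23 and in 20 of 24, where it was the highest for 29.7% of all genes. Ifi27l2a, an interferon-induced gene, read 10.54 in line 3, against 8.16 in line 2 and 7.22 in line 1, and Tgfbi, a matrix protein of macrophages, 10.63 in line 3, against 7.91 in line 2 and 8.72 in line 1. Hpgd, the prostaglandin-degrading dehydrogenase, was 11.97 in line 3, against 4.94 in line 2 and 3.87 in line 1.

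A few genes put all 3 lines apart. Camp, Chil1, Stfa3 and Rras2 were set apart both in line 2 and in line 1. App, the amyloid precursor protein, was set apart both in line 2 and in line 3, with 6.08 in line 2, against 8.22 in line 1 and 12.13 in line 3. Another App probe set read 5.93 in line 2, against 6.75 in line 1 and 10.70 in line 3. By the rule it set line 3 apart but not line 2. Gatm and Smpdl3a were set apart both in line 1, on the low side, and in line 3, on the high side, and Smpdl3a read 8.95 in line 2, against 4.84 in line 1 and 11.86 in line 3. Over the 3 lines, 167 genes were set apart in at least 1 of them.

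The threshold lay within a continuous range of distances. Just inside it on the high side were Smad6, Gfi1b and Oaf, with 2.03, 2.16 and 2.40 to the nearer line, and just outside were Serpinb6b, Apbb2 and Ccr9, with 1.93, 1.88 and 1.86. On the low side Xdh, Camp and Rab23 were just inside, at -2.04, -2.08 and -2.09, and Fam189b, Fgd4 and Cntln just outside, at -1.99, -1.98 and -1.96.

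Further probe sets of the same genes give a reading that did not choose them. For 19 of the 65 genes there were 27 other probe sets above the array median in at least 1 line. All 27 put line 2 on the same side of both other lines, 22 of them by more than 1 and 10 by more than 2. For the genes of line 1 the same count was 24 of 31, and for those of line 3 it was 19 of 20. Probe sets of a gene are read from the same RNA on the same array, so they check the probes and not the line. Another 24 probe sets of line 2 genes were under the median in all 3 lines, among them the second probe set of Zfp507, and were not counted.

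Signs of RNA quality were read on the control probe sets. The 3′ minus 5′ difference of the Actb control probe sets was 0.52 in line 2, against 0.70 in line 1 and 0.75 in line 3, with 0.12 to 0.23 in the 4 untreated RH-RAS lines, and that of Gapdh was -0.11 in line 2, against -0.08 in line 1 and -0.03 in line 3. Their part in the differences between lines was not tested.

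The levels of the 65 genes were then read in the other groups. Among the 54 lower genes, the mean of the 4 untreated RH-RAS lines was nearer to line 2 than to the mean of lines 1 and 3 for 43, and 32 were below the array median on all 4 RH-RAS arrays. The MLL-AF9 line was nearer to line 2 for 20 of the 54. Among the 11 higher genes, RH-RAS lines were nearer to line 2 for 6 and the MLL-AF9 line for 2. Cdh17, for example, read 11.70 to 12.16 in untreated RH-RAS lines, 4.67 in the MLL-AF9 line and 8.85 in line 2, and Gfi1b read 9.76 to 10.13 in untreated RH-RAS lines and 7.75 in the MLL-AF9 line.

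The response of the same genes to SGC0946 in RH-RAS cells was fitted without the NUP98-JARID1A arrays. Those arrays did enter the choice of probe sets and the filter on dim probe sets, which used all 10 arrays. The response was tested with limma over the 6 RH-RAS arrays, as treated lines 1 and 3 minus the same lines untreated, with Benjamini-Hochberg adjustment over 11993 genes. Over all genes 12.6% rose and 10.3% fell at an adjusted p under 0.05. Of the 54 genes lower in line 2, 9 rose (16.7%), 8 fell (14.8%) and 37 did not pass, shares near those of all genes. Of these 54 genes, 28 were below the array median on all 6 RH-RAS arrays, so a change in them could be missed. The same held for 3 of the 11 higher genes. Of the 11 genes higher in line 2, 0 rose, 4 fell (36.4%) and 7 did not pass, and no test of the list was made. At an unadjusted p under 0.05 in limma, 0 of the 11 rose and 5 fell. When the line was fitted as a block, 3 in place of 8 of the lower genes fell, 7 rose, and 3 of the higher genes fell, beside 9.36% risen and 6.75% fallen over all genes. Without any 1 of the 4 arrays of lines 1 and 3, 1 of the higher genes fell, and 3 to 5 of the lower genes fell.

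Among the lower genes the largest rise was in Cav2. Its levels were 9.90 and 9.99 in treated RH-RAS lines 1 and 3, against 5.90 and 6.40 in the same lines untreated, a log2 change of 3.80 ± 0.55 (SE) with a limma adjusted p of 0.00621. Untreated line 4, which was not in the contrast, read 7.83, against 5.98 in untreated line 2, and that gap enters the standard error. Clec4a2 read 8.03 and 8.16 in treated lines, against 5.50 and 5.13 in untreated lines, a change of 2.78 ± 0.14 with a limma adjusted p of 0.000417. Clec7a read 7.58 and 7.59 in treated lines, against 5.84 and 5.20 in untreated lines (change 2.06 ± 0.23, limma adjusted p = 0.00268), and App 6.32 and 6.41 in treated lines, against 4.68 and 4.54 in untreated lines (change 1.76 ± 0.10, limma adjusted p = 0.000491). In all 4 genes the treated and untreated arrays of lines 1 and 3 did not overlap.

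Sdc1 fell furthest, with 5.56 and 4.96 in treated lines, against 8.23 and 8.32 in untreated lines, a change of -3.01 ± 0.61 (limma adjusted p = 0.0177). Untreated line 4 stood at 6.01, between them and near the treated value, and with the line as a block the adjusted p was 0.0549. Dnajc6, a cofactor of clathrin uncoating, fell by 2.64 on the log2 scale (SE 0.24, limma adjusted p = 0.00139), with 6.51 and 6.40 in treated lines, against 9.06 and 9.12 in untreated lines. Bdh1, a ketone body dehydrogenase, fell by 2.07 (SE 0.51, limma adjusted p = 0.0327) and did not pass with the block (adjusted p = 0.0825). Gfi1b was the strongest fall among the higher genes: it read 7.86 and 7.59 in treated lines, against 9.96 and 10.13 in untreated lines, a change of -2.32 ± 0.15 (limma adjusted p = 0.000675). The 8 late neutrophil genes set apart in line 2 read 5.89 or less on all 6 RH-RAS arrays, and none passed the threshold in limma, with 3 higher after treatment at an unadjusted p under 0.05. The estimate was 0.04 ± 0.13 (SE) for Ngp and 0.25 ± 0.11 for Chil3.

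**Figure D5:**
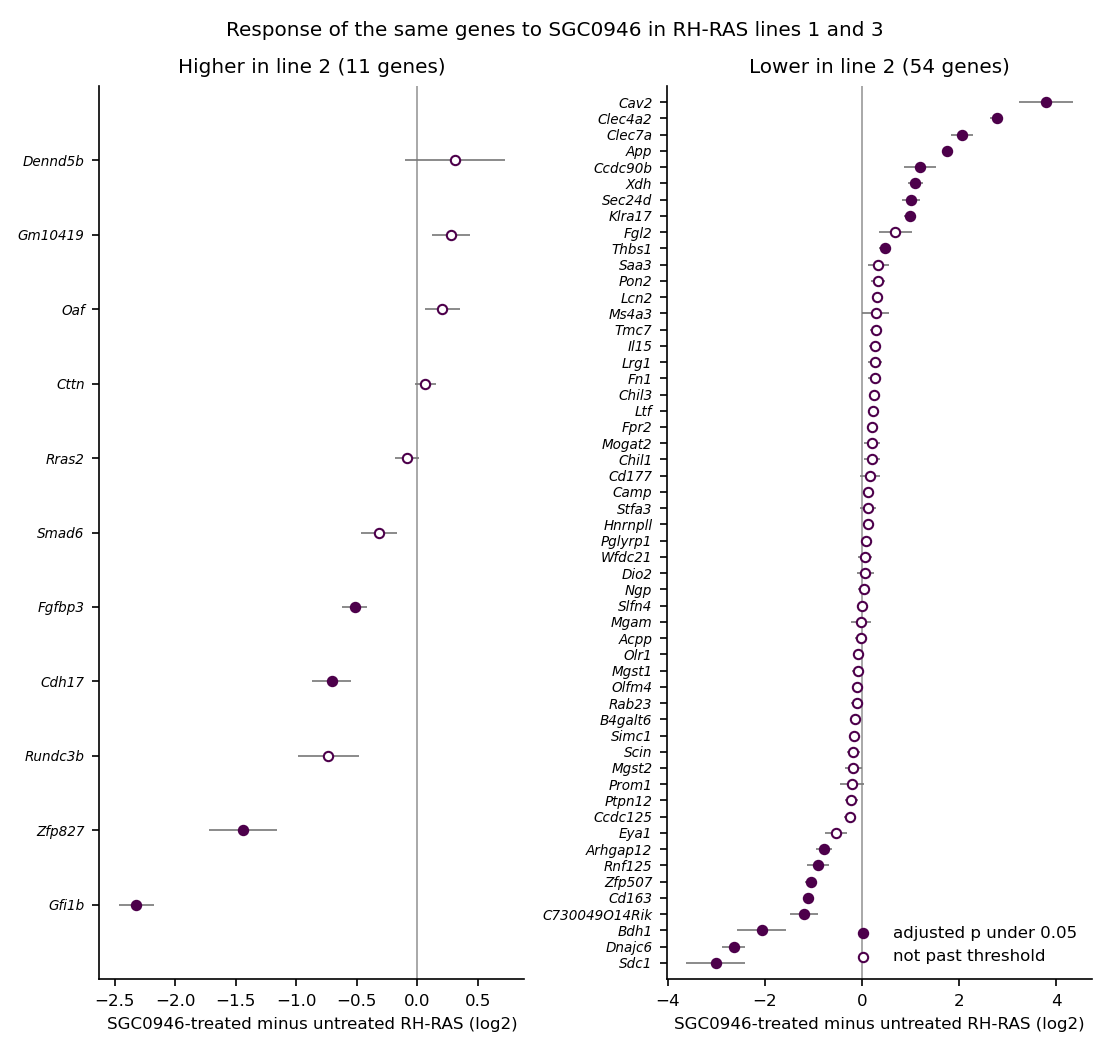
Change with SGC0946 in RH-RAS lines 1 and 3 (x axis, treated minus untreated, log2, with the standard error as bars) for the 11 genes higher and the 54 genes lower in NUP98-JARID1A line 2 (rows, in order of change). Filled points passed an adjusted p of 0.05 in limma: 4 of the higher genes, all falling, and 17 of the lower genes, from Sdc1 at -3.01 to Cav2 at 3.80.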

How the data were processed

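Total RNA of 10 cultures was measured on 1 array each. The authors deposited 1 log2 level per probe set and array, made with RMA per the submitters' processing notes; the sources used here give neither its version nor its annotation. Of 45101 probe sets, 64 were controls, 34958 had 1 gene symbol in the platform annotation, 932 had several, and 9211 were not listed and stay unnamed here. For each of 18194 genes the brightest probe set on average was kept, and the 11993 genes that exceeded the median of the array on 2 or more of 10 arrays were tested. The number of arrays limits the precision.

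A gene was set apart in a line when it lay more than 2 on the log2 scale from both other lines. With 1 array per line, no test was made between lines. The members, the 28 gene lists and the size rule were chosen with earlier results of these data known. Named genes were the 12 furthest above and below in line 2, 2 to 4 of each list, genes at the threshold, the 4 furthest on each side in lines 1 and 3, the largest SGC0946 changes and a set of lineage genes; other names are members or were chosen after their values were seen.

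The SGC0946 response was fitted with limma 3.58.1 in R 4.3.3 (lmFit, eBayes, Benjamini-Hochberg). Untreated lines 2 and 4 shared a coefficient, so the difference between them enters the standard errors and p-values. The script was tested on simulated data. Treated and untreated RH-RAS arrays of the same number are the same line per the labels, and the difference of line 1 minus line 3 correlated at 0.292 between them over 11993 genes. Separate cultures within a line are not described, so p-values measure the spread between these arrays, which may be partly technical. Promoters and coordinates are from RefSeq GRCm38.p6. Alternatives were the probe set rule, the filter, the threshold, leaving out arrays, the line as a block and the controls used.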

Additional observations from a re-analysis of the deposited data

Results flagged for a closer look

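Each of 23 genes was examined over the 4 untreated RH-RAS lines for 1 line far from the rest, meaning a gap to its nearest neighbour, as a share of the whole range, past Dixon's 95% limit. In 3 genes 1 line was that far off, where chance gives about 1 in 20. Ccdc90b, low in NUP98-JARID1A line 2, was 8.784 in RH-RAS line 4, against 7.665 to 7.765 in the others. Rras2 was 9.260 in RH-RAS line 3, against 9.045 to 9.076, a small gap on the log2 scale. Rundc3b was 8.308 in RH-RAS line 4, against 9.064 to 9.129.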

How the results depend on the processing

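The late neutrophil list and the named genes set apart in line 2 kept their direction under every alternative tried. A change of direction was not looked for in the other lists, and some changed sign when 1 line was left out. Without line 3 the median was 0.29 for interferon-stimulated genes, 0.20 for cytokine receptors and 0.03 for myeloid transcription factors. Without line 1 it was -0.08 for T and NK genes. With a threshold of 1 in place of 2, 67 genes were higher and 181 lower in line 2, 140 and 201 in line 1, and 127 and 51 in line 3. With a threshold of 3 the counts were 1 and 16, 7 and 13, and 10 and 2. With the mean of all probe sets of a gene, 19 genes were higher in line 1 in place of 30. Set against 1 other line only, 37 to 66 genes were higher and 106 to 119 lower in line 2, the first number of each pair without line 1 and the second without line 3, and these held all 11 and all 54 members by construction. The median of the late neutrophil list was -1.95 without line 1, -3.09 without line 3, -2.47 with no filter, and -2.09 without the genes under the array median in line 2, an alternative chosen after seeing the data. With the replicate block, 3 of the lower genes fell with SGC0946 in place of 8, and with all 4 untreated lines as controls 5 fell. Leaving out 1 array at a time gave 1 to 5 falling among the higher genes, 3 to 9 falling and 5 to 10 rising among the lower genes, and 0 rising among the higher genes throughout; fewer arrays in the fit lowered the counts over all genes too, to as few as 1.70% falling. The replicate block, which pairs treated and untreated arrays of 1 line, changed no other count by over 1.5 times. Of 52 counts of genes set apart, 35 stayed within 1.5 times, as did 28 of 40 SGC0946 counts. Probe sets under the array median limit folds for genes such as Chil3.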
